A study of Mus musculus with 4 samples.

Results

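The chromatin of 7 genes for T cell costimulatory and coinhibitory receptors, Cd28, Ctla4, Icos, Pdcd1, Lag3, Havcr2 and Btla, was examined in regulatory T (Treg) cells with and without a normal IL-2 receptor α chain. Members were all peaks of the 4 deposited ATAC-seq peak lists that overlapped an annotated gene body or the 20 kb on either side of it (GRCm38, the coordinates of mm10). Peaks of different libraries were joined into 1 region where they shared at least 1 bp. This gave 95 regions in 469 kb, out of 271773 regions on the assembled chromosomes of the whole series (0.0350%), and 47 of the 95 were called in all 4 libraries. Cd28, Ctla4 and Icos are neighbours on chromosome 1 and were also taken as 1 cluster.

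ATAC-seq marks DNA that a transposase can reach, so a peak is a stretch of open chromatin. All mice were female C57BL/6 animals of 6 to 8 weeks, naïve, and homozygous for a Foxp3 reporter that makes Foxp3+ cells express RFP. RFP+ Treg cells were sorted from lymph nodes (LNs) of wild type (WT) mice and of Il2ra mut/mut mice, 50000 cells per library, with 2 libraries of each genotype that the study describes as biological replicates. The Il2ra mut allele is a spontaneous point mutation found in a Ccr2-/- colony, and the mice used carried it without the Ccr2 deletion. It changes a tyrosine of CD25 to a histidine and lowers CD25 at the cell surface, so the mutant Treg cells keep part of their IL-2 signal and the allele is present in every cell of the animal, not in Treg cells alone. The study asked how reduced IL-2 signals alter open chromatin in these cells.

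CD28 is the main costimulatory receptor of T cells and binds CD80 and CD86 on antigen-presenting cells. CTLA-4 binds the same ligands, is made constitutively by Treg cells and removes the ligands from the presenting cell, and ICOS, the third receptor of the cluster, binds ICOSL and is a marker of activated Treg cells. PD-1 (Pdcd1), LAG-3 (Lag3), TIM-3 (Havcr2) and BTLA (Btla) are inhibitory receptors that are raised on activated or chronically stimulated T cells, with PD-L1 and PD-L2, MHC class II, galectin-9 and HVEM among their respective ligands.

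Each region is named by its gene and its order along the chromosome, so Ctla4-1 is the first region of the Ctla4 window. Its strength in a library is the percentile of its −log10 p among all peaks of that library, where 100% is the strongest peak, and the fold is the authors' enrichment of reads at the summit over the background. The 5 sequences shown here belong to the results that follow. Pdcd1-1 was the strongest region of the 7 loci, and Ctla4-1, Icos-7 and Havcr2-7 had the widest gaps in percentile between the genotypes. By the fitted log2 difference in fold, given further on, Cd28-25 (−0.87) and Btla-7 (−0.82) differed more. The Havcr2 promoter was called in the Il2ra mut/mut libraries and in neither WT library. Each is the plus strand of GRCm38 (RefSeq), 300 bases around the strongest summit or, for Havcr2, the 250 bases before the start site. Capitals mark words written for ETS (AGGAAG), RUNX (TGTGGT), TCF/LEF (CTTTGAT), E-box (CAGCTG), NFAT (TGGAAA), STAT (TTCNNNGAA), AP-1 (TGANTCA) and GATA factors (the letters AGATAA) on either strand, and a match to the core CTCF motif.
Pdcd1-1 (chr1:94035342-94035641): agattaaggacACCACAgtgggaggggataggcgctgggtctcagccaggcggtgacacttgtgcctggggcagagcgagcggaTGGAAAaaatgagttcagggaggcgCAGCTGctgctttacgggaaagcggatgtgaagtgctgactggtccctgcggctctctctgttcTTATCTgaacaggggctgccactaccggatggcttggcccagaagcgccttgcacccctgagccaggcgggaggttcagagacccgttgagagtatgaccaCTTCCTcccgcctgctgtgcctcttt
Ctla4-1 (chr1:60868366-60868665): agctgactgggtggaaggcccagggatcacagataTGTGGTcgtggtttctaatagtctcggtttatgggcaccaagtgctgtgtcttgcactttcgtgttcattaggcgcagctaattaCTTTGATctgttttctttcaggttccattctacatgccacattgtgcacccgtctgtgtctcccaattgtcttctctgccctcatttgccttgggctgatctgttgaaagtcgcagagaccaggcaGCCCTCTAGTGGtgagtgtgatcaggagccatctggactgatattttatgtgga
Icos-7 (chr1:60990248-60990547): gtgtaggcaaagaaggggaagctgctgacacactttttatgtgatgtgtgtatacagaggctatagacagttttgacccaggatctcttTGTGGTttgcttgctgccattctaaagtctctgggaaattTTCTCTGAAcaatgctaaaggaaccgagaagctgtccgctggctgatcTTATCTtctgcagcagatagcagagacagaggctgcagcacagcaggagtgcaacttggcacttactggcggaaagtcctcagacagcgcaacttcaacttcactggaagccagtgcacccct
Havcr2-7 (chr11:46474272-46474571): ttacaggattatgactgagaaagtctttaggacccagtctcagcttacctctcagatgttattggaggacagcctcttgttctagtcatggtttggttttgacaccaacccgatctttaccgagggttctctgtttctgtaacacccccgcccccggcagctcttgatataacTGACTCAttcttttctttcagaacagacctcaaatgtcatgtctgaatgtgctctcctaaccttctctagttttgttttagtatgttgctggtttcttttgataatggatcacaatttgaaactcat
Havcr2 promoter (chr11:46454685-46454934): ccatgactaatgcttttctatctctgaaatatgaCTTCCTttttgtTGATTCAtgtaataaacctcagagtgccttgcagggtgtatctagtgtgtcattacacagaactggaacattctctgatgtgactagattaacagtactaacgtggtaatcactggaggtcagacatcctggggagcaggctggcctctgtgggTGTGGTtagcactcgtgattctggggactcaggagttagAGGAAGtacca
Ctla4-1 held a RUNX word, a TCF/LEF word and the CTCF match, whereas Icos-7 held a RUNX, a STAT and a GATA word. Havcr2-7 held 1 AP-1 word and no other of the list. The Havcr2 promoter held 2 ETS words, 1 RUNX word and 1 AP-1 word, and Pdcd1-1 held 1 word each for ETS, RUNX, E-box, GATA and NFAT factors. These matches describe the letters and do not show that a factor was bound.

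The lists held between 112569 and 142732 peaks per library, the longest being Il2ra mut/mut replicate 2. They hold no library totals, so sequencing depth is unknown, but the fold of 100% of peaks came out as whole summit reads (within 0.02 of a read, or 0.04% of it at high counts), with a background of 0.974 to 1.23 reads and a median of 8 to 10 reads per peak. Weak peaks therefore rest on few reads. In WT replicate 1 a summit of 6, 7 or 8 reads stood at a percentile of 7.92%, 26.6% or 47.8%, and intervals given here for reads are exact 95% Poisson intervals that cover counting error only. Of the promoters of 9 T cell and Treg genes, 9 were called in all 4 libraries, Foxp3 among them at percentiles of 47.8% and 78.5% in WT against 72.6% and 76.5% in Il2ra mut/mut. Il2ra itself stood at 94.6% and 95.1% in WT against 89.8% and 91.2% in Il2ra mut/mut. Among 18 promoters marking other cells, Cd8b1 and Zbtb46 were called in all 4 libraries, Cd79b and Eomes in 2 libraries each, and the other 14, with Cd8a, Lyz2 and Hbb-bs among them, in none. Cd8b1, of CD8 T cells, stood at 84.2% and 84.5% in WT against 66.2% and 76.5% in Il2ra mut/mut, and the part of such cells in the differences between genotypes was not tested.

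The 3 start sites of the cluster were the most open of the 7. At the Cd28 start site (Cd28-4, chr1:60745578-60746665, over exon 1) the percentiles were 97.8% and 97.7% in WT against 98.4% and 97.7% in Il2ra mut/mut. The Ctla4 start site (Ctla4-16, chr1:60908643-60909507) stood at 95.6% and 97.3% in WT against 96.5% and 97.4% in Il2ra mut/mut. The Icos start site (Icos-3, chr1:60977472-60978139) stood at 94.6% and 95.7% in WT against 94.8% and 95.9% in Il2ra mut/mut. In each of the 3 genes the genotypes overlapped.

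The start sites of Btla, Pdcd1 and Lag3, which lie outside the cluster, were lower. Btla-2 (chr16:45223498-45225122) stood at 90.02% and 90.2% in WT against 88.3% and 87.0% in Il2ra mut/mut, so both WT values lay above both mutant values, by 1.76 points. Pdcd1-9 (chr1:94052086-94052849) stood at 85.1% and 87.3% in WT against 84.8% and 91.5% in Il2ra mut/mut. Lag3-9 (chr6:124911448-124912165) stood at 75.3% and 83.8% in WT against 78.9% and 85.4% in Il2ra mut/mut. At both genes the replicates of a genotype differed by more than the genotype means.

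The Havcr2 start site differed from the others in its calls. Havcr2-4 (chr11:46454584-46455083, summit 167 bp before the start site) was not called in either WT library and stood at 76.4% and 62.3% in Il2ra mut/mut. The summits held 13 reads (95% interval 6.92 to 22.2) and 9 reads (4.12 to 17.1), with folds of 6.28 and 4.86. A missing peak is a summit under the caller's threshold and not a count of 0, and the 2 mutant values did not pass as reproducible (irreproducible discovery rate, IDR, 0.327). In the order of the start sites, Cd28, Ctla4 and Icos stood above the other 4 in every library. Cd28 did not overlap Ctla4, but Ctla4 overlapped Icos, Btla overlapped Pdcd1, and Pdcd1 overlapped Lag3.

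**Figure D1:**
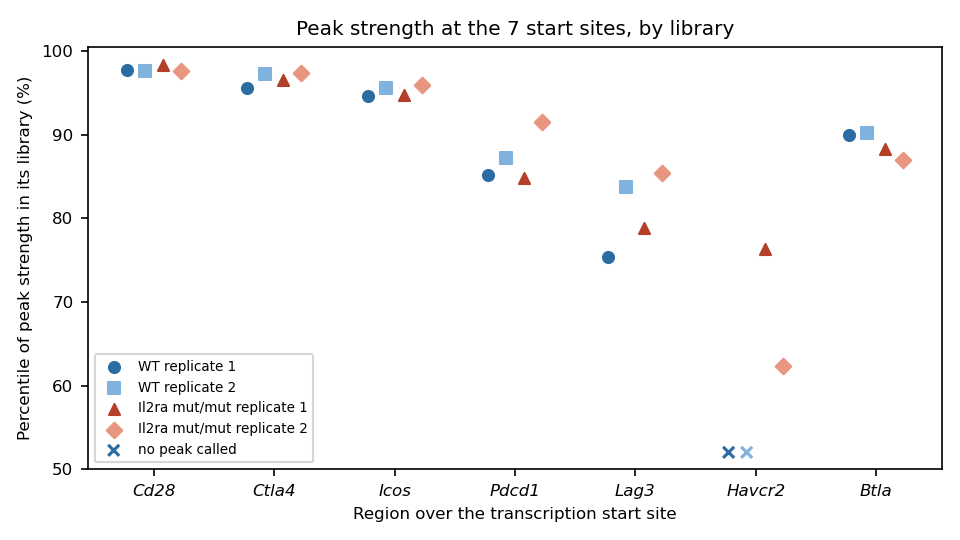
Percentile of the region over each start site within its library (y axis, %), for the 7 genes (x axis), with 1 point per library and crosses where no peak was called. Cd28, Ctla4 and Icos lie between 94.6% and 98.4% in all 4 libraries, and Havcr2 has points for the Il2ra mut/mut libraries at 76.4% and 62.3% and none for WT.

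Many regions of the loci lay outside the start sites. Regions called in all 4 libraries numbered 12 at Ctla4, 10 at Lag3, 8 at Cd28, 7 at Icos, 4 at Pdcd1 and 3 each at Havcr2 and Btla. Per 10 kb of window this was 2.11 at Lag3, 1.74 at Ctla4, 1.12 at Icos, 0.829 at Cd28, 0.737 at Pdcd1, 0.452 at Havcr2 and 0.409 at Btla, against a median of 0.216 over the same windows of 21938 protein-coding genes. Of those genes 99.7% had a lower density than Lag3 and 99.2% than Ctla4, while 73.3% and 69.2% were lower than Havcr2 and Btla. The window of a short gene such as Lag3 also takes in regions of its neighbours. Of the 47 shared regions, 12 had their summit in an intron, 2 in a UTR, 21 upstream of the start site and 12 beyond the gene's end. Their median width was 718 bp, against 760 bp for the shared regions of the series. The 25 regions called in 1 library had a median of 214 bp, but a shared region joins peaks of 4 libraries, which widens it. Of those 25, 14 came from WT replicate 2, and none had more than 12 reads at its summit. Regions called in 1 WT library alone were 17.9% of the members, against 27.4% of all regions of the series. For 1 Il2ra mut/mut library alone the shares were 8.42% and 33.9%, and these differences from the series were not tested.

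Cd28 had the most regions, 25. WT replicates 1 and 2 had peaks in 15 and 21 of them, and Il2ra mut/mut replicates 1 and 2 in 12 and 9. Of all 271773 regions of the series, 38.8% and 44.3% were called in the WT libraries and 42.5% and 49.4% in those of the mutant, and the difference of the locus from the series was not tested. Cd28-3, Cd28-7, Cd28-15 and Cd28-16 were called in both WT libraries and neither mutant library. These were the 4 regions with that pattern among the 95 (4.21%), where the series had 7332 of 271773 (2.70%). Cd28-3 lay 32.5 kb before the start site of the basic transcript and had 8 and 16 reads. Cd28-7, Cd28-15 and Cd28-16 lay in intron 1, 1.78, 13.7 and 14.3 kb after it, with 6 to 14 reads. In none of the 4 were the replicates reproducible by IDR (0.116 to 0.493).

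Of the 8 shared regions of Cd28, 4 were higher in both WT libraries. Cd28-13, in intron 1, stood at 92.2% and 94.8% in WT against 91.3% and 89.7% in Il2ra mut/mut. Cd28-23 (chr1:60776500-60777936), 30.8 kb after the start site and beside the long noncoding RNA gene 2310016D23Rik, was the strongest region of the locus apart from the start site, at 96.2% and 97.3% in WT against 95.3% and 96.0% in Il2ra mut/mut. Beyond it, Cd28-24 stood at 70.7% and 83.8% in WT against 55.5% and 62.3% in Il2ra mut/mut. Cd28-25, at the noncoding gene Gm11579, stood at 90.8% and 89.6% in WT against 78.9% and 87.0% in Il2ra mut/mut. At these 4 regions both WT values lay above both mutant values, by 0.154 to 8.35 points, and at the other 4 the genotypes overlapped, so that none was higher in the mutant.

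Ctla4 had regions on both sides of its start site, and they did not move together. Ctla4-18 (chr1:60910675-60914337) ran for 3663 bp within the gene, with its summit in intron 3, and was the strongest region of the locus, above the start site in each library, with folds of 26.8 and 46.0 in WT against 47.1 and 37.9 in Il2ra mut/mut. Its percentiles of 96.3% and 97.7% in WT against 98.5% and 97.8% in Il2ra mut/mut were apart by 0.149 points, which is less than the distance between the replicates of either genotype. Upstream of the start site, Ctla4-12 (10.2 kb before it) stood at 92.6% to 95.2% and Ctla4-6 (26.0 kb before it) at 90.4% to 94.4%, with the genotypes overlapping at both.

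Ctla4-1 (chr1:60868325-60868757), whose sequence is given above, was the farthest upstream, 40.5 kb before the start site. It stood at 62.4% and 74.5% in WT against 86.8% and 86.3% in Il2ra mut/mut. Its summit held 9 reads (4.12 to 17.1) and 12 reads (6.20 to 21.0) in WT against 22 (13.8 to 33.3) and 17 (9.90 to 27.2) in Il2ra mut/mut, so that the counting intervals of the genotypes overlapped although the values did not. Ctla4-8, which spans the upstream start of the annotated gene body at chr1:60887000, was higher in the mutant at 87.8% and 93.0% against 85.1% and 85.1%. Ctla4-9, 19.99 kb before the start site, was called in WT replicate 2 at 43.8% and in both mutant libraries at 76.4% and 86.3%. Ctla4-10, 15.5 kb before the start site, was called in the 2 mutant libraries at 19.8% and 79.7% with 8 and 12 reads.

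The other direction was also found at Ctla4. Ctla4-15, 1.36 kb before the start site, stood at 88.0% and 89.3% in WT against 81.9% and 83.3% in Il2ra mut/mut, with folds of 11.1 and 15.7 against 7.63 and 7.29. Ctla4-5, a weak region 28.8 kb before the start site, stood at 47.8% and 74.5% in WT against 19.8% and 46.7%. Among the 12 shared Ctla4 regions, 3 were higher in both mutant libraries, 2 in both WT libraries and 7 overlapped. With percentiles taken among the shared regions alone, 2 were higher in the mutant and 3 in WT, so the majority depended on the scale.

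Icos had 1 strong region, its start site, and 6 weaker shared ones. Icos-7 (chr1:60990199-60990665), in intron 1 and over the unclassified transcript Gm37039, stood at 80.3% and 81.0% in WT against 66.2% and 46.7% in Il2ra mut/mut, a gap of 14.1 points. The reads at its summit were 13 (6.92 to 22.2) and 16 (9.15 to 26.0) in WT against 11 (5.49 to 19.7) and 8 (3.45 to 15.8) in Il2ra mut/mut. Its neighbours in the same intron were less even between replicates, Icos-5 with 81.9% and 76.7% against 80.6% and 25.3%, and Icos-6 with 7.92% and 79.9% against 78.9% and 79.7%. Icos-8, past the gene's end and 38.9 kb after the start site, had the highest mean percentile apart from the start site and stood at 70.7% and 79.9% in WT against 72.6% and 62.3% in Il2ra mut/mut.

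Over the whole cluster (chr1:60696800-61020320, 324 kb) there were 72 regions, 35 of them called in all 4 libraries, of which 5 were higher in both mutant libraries and 7 in both WT libraries. The 73.6 kb between the Cd28 and Ctla4 windows held 10 regions with 4 shared, all overlapping between genotypes. The 22.1 kb between the Ctla4 and Icos windows held 7 regions with 4 shared, 2 of them higher in the mutant. The stretches between genes were not among the 95 members.

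**Figure D2:**
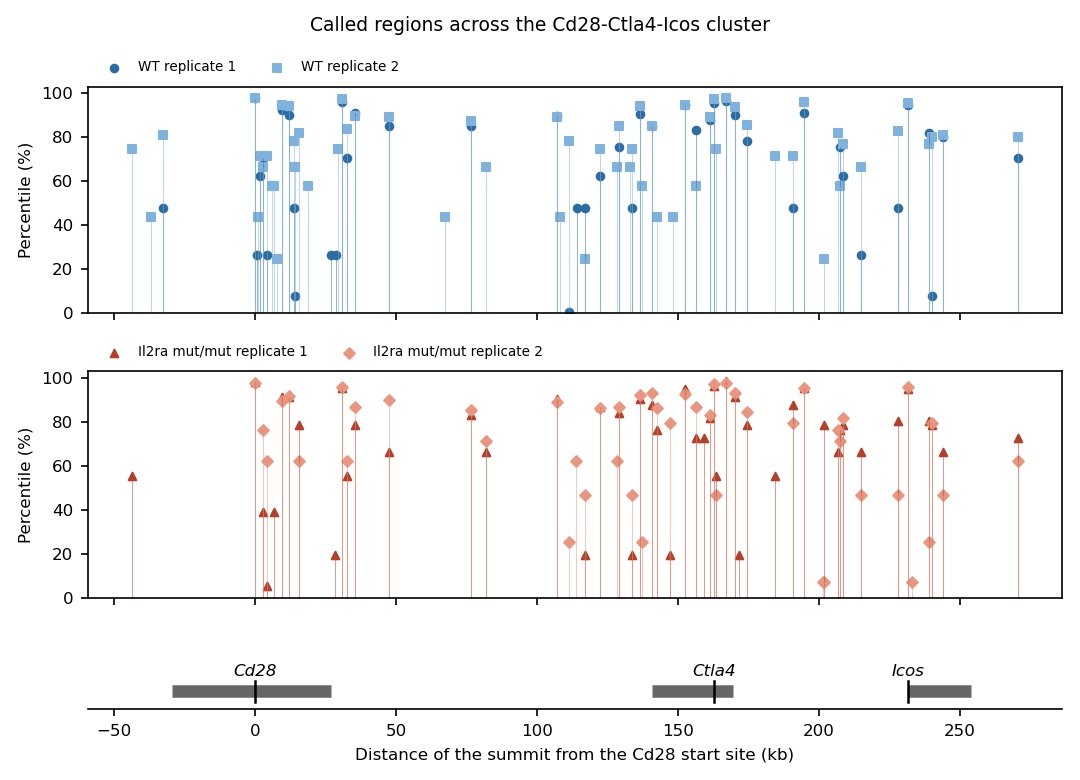
Percentile of each called region (y axis, %) against the distance of its summit from the Cd28 start site (x axis, kb), for the WT libraries (upper panel) and the Il2ra mut/mut libraries (middle panel), with gene bodies as grey bars and start sites as ticks (lower panel). Points over Cd28 are fewer in the mutant panel (12 and 9 of 25 regions against 15 and 21), and the 3 start sites stand above 94% in both panels.

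Pdcd1 had the strongest region of all. Pdcd1-1 (chr1:94034710-94036383) lay beyond the end of the gene, 17.1 kb from the start site, and the nearest other start site, of Neu4, was 14.2 kb away. It stood at 99.4% and 99.2% in WT against 99.2% and 99.5% in Il2ra mut/mut, with folds of 56.7, 72.8, 59.2 and 69.5, and its summit held 111 to 143 reads. The genotypes overlapped there. Pdcd1-10, 1.24 kb before the start site, was higher in both mutant libraries at 89.1% and 90.5% against 86.7% and 85.7%. Pdcd1-5, in intron 1, overlapped at 78.2% and 79.9% against 84.0% and 71.4%. Pdcd1-6, also in intron 1, was called in the 2 mutant libraries alone, at 39.1% and 25.3% with 9 and 7 reads.

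The Lag3 window is shared with the genes on either side. Lag3-1 and Lag3-3 lie at Cd4, the coreceptor of helper and regulatory T cells, and Lag3-3 covers the Cd4 start site. Lag3-1 (chr6:124884937-124886413) stood at 97.4% and 98.0% in WT against 96.4% and 96.8% in Il2ra mut/mut, and Lag3-3 at 83.2% and 83.8% against 76.4% and 71.4%, so both were higher in both WT libraries. Lag3-14 (chr6:124930369-124932154), over the Mlf2 start site, had the highest mean percentile of the window and was higher in both mutant libraries, at 97.4% and 98.1% against 96.9% and 96.3%. Lag3-11 and Lag3-13 lie at Ptms, the former higher in the mutant by 0.516 points and the latter in WT by 1.71 points, at 78.2% and 83.8% against 19.8% and 76.5%.

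Nearer to Lag3 itself, the shared regions at and beyond its end were higher in the mutant when the strongest peak stood for a region. When the peaks of a region were averaged instead, 0 shared regions of the Lag3 window were higher in the mutant and 3 in WT. Lag3-5, between Lag3-4 and Lag3-6, was called in WT replicate 2 at 24.5% and in Il2ra mut/mut replicate 2 at 25.3%. Lag3-6, across the gene's end, stood at 83.2% and 86.3% in WT against 88.3% and 92.1% in Il2ra mut/mut, and Lag3-4, 10.6 kb from the start site, at 78.2% and 81.0% against 84.0% and 87.0%. Inside the gene, Lag3-7 in intron 5 overlapped at 70.7% and 78.5% against 83.0% and 71.4%, and Lag3-8 in intron 2 was the weakest shared region of all, with a mean percentile of 27.5%. Lag3-12 was called in the 2 mutant libraries alone, with 8 and 6 reads.

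Havcr2 had 7 regions. WT replicates had peaks in 4 and 4 of them and Il2ra mut/mut replicates in 7 and 6, where 38.8% and 44.3% against 42.5% and 49.4% of the regions of the series were called. Havcr2-7 (chr11:46474152-46474613), in intron 5 and 19.5 kb after the start site, was called in all 4 libraries at 26.6% and 66.3% in WT against 83.0% and 84.5% in Il2ra mut/mut, a gap of 16.7 points and the widest among the 47 regions. Its summit held 7 reads (2.81 to 14.4) and 10 reads (4.80 to 18.4) in WT against 17 (9.90 to 27.2) and 15 (8.40 to 24.7) in Il2ra mut/mut. Havcr2-5, in an intron 7.29 kb after the start site, was called in the mutant libraries alone at 86.2% and 46.7%, with 21 and 8 reads. Havcr2-1, the strongest region of the window, lies over the start site of Med7, a Mediator subunit gene, and stood at 95.7% and 96.7% against 97.1% and 97.0%.

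At Btla the 3 shared regions were all higher in both WT libraries. Beside the start site, Btla-4 (chr16:45251528-45252541), in the last exon, stood at 92.2% and 92.6% in WT against 89.4% and 91.2% in Il2ra mut/mut. Btla-7 (chr16:45261273-45261794), 37.2 kb after the start site and past the gene's end, stood at 85.1% and 87.3% in WT against 72.6% and 76.5% in Il2ra mut/mut, with folds of 9.12 and 13.1 against 5.83 and 5.83. The other 4 Btla regions were called in WT replicate 2 alone, at 24.5% to 66.3%.

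**Figure D3:**
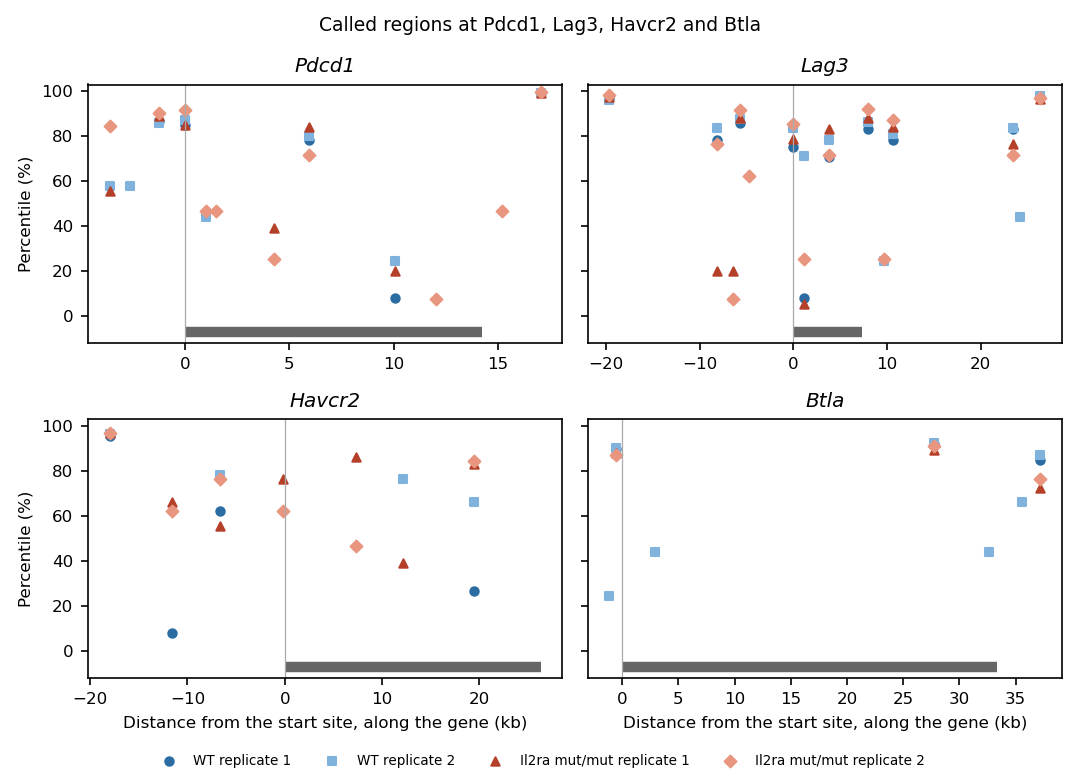
Percentile of each called region (y axis, %) against the distance of its summit from the gene's start site in the direction of transcription (x axis, kb), for Pdcd1, Lag3, Havcr2 and Btla, with 1 point per library and the gene body as a grey bar. Pdcd1-1 stands above 99% in all 4 libraries at 17.1 kb, and at Havcr2 the triangles and diamonds of the mutant are present at the start site, where WT has none.

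Over all 47 shared regions, both Il2ra mut/mut percentiles lay above both WT percentiles in 10 (21.3%) and below them in 13 (27.7%). Over the 38281 shared regions of the series, which were 14.1% of all regions, these shares were 26.2% and 12.6%. The scale matters to both, because the lists differ in length. With percentiles taken among the shared regions alone, the members gave 8 and 15 and the series 20.4% and 19.4%, so the part of the non-overlapping regions that was higher in the mutant went from 67.5% to 51.4% in the series and from 43.5% to 34.8% in the members. By locus on the first scale, Cd28 had 0 higher in the mutant and 4 in WT, Ctla4 3 and 2, Icos 0 and 1, Pdcd1 1 and 0, Lag3 4 and 3, Havcr2 2 and 0, and Btla 0 and 3. On the second scale Ctla4 had 2 and 3, Icos 0 and 2 and Havcr2 1 and 0, while the other loci kept their counts. A gap of at least 10 points was reached by Ctla4-1 and Havcr2-7 in the direction of the mutant and by Icos-7 in that of WT, 4.26% and 2.13% of the members, against 4.03% and 2.48% of the series.

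These counts turned on single libraries. Replicate 2 was above replicate 1 in 39 of the 47 regions in WT against 32 of 47 in Il2ra mut/mut, and the median distance between replicates was 2.79 and 3.27 points. Over the 38281 shared regions of the series it was above in 24117 in WT and 24928 in Il2ra mut/mut, with median distances of 3.83 and 3.67 points. Without WT replicate 2, 23 regions of 49 were higher in the mutant and 14 in WT, with 46.7% and 22.1% in the series. Without WT replicate 1 the numbers were 13 and 26 of 51, with 36.4% and 29.8% in the series, and without Il2ra mut/mut replicate 1 they were 18 and 19 of 48, with 49.0% and 23.2%. Without Il2ra mut/mut replicate 2 they were 14 and 19 of 48, with 35.7% and 33.6%. With 2 libraries against 2, the exact permutation test (two-sided) of a single region cannot go below p = 0.333, and 3 libraries make separation easier still.

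The fit across all shared regions gave the size of each difference. None of the 47 members passed limma on quantile normalized log2 fold enrichment (Benjamini-Hochberg adjusted p under 0.05 over 38281 regions), and none of the 38281 did (0%, lowest adjusted p 0.582). At an unadjusted p under 0.05 there were 10 members and 3274 regions of the series (8.55%). With median centring in place of quantile normalization, limma passed 311 regions and 0 members. A p that misses the threshold with 2 libraries per genotype does not show that the genotypes were alike. On simulated data the same fit recovered 0 of 200 regions changed 2-fold. The median difference of the members was −0.13, with 19 above 0 and 28 below, against 0.0037 over the series.

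The largest fitted differences were at the regions already described. In limma, Cd28-25 differed by −0.87 (SE 0.268, Il2ra mut/mut minus WT on the log2 scale), Btla-7 by −0.82 (SE 0.235), Ctla4-15 by −0.75 (SE 0.225), Lag3-13 by −0.70 (SE 0.279), Icos-7 by −0.65 (SE 0.240) and Cd28-13 by −0.63 (SE 0.232). In the other direction were Ctla4-1, by 0.81 (SE 0.251), and Havcr2-7, by 0.79 (SE 0.243). Each of these 8 had an adjusted p of 0.582 in limma. Of the 6 start sites with a fit, 4 lay near 0, at 0.04 (SE 0.152) for Cd28-4, 0.03 (SE 0.156) for Ctla4-16, −0.05 (SE 0.146) for Icos-3 and 0.04 (SE 0.270) for Lag3-9, while Pdcd1-9 stood at 0.15 (SE 0.273) and Btla-2 at −0.46 (SE 0.228). Pdcd1-1 stood at −0.01 (SE 0.111).

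**Figure D4:**
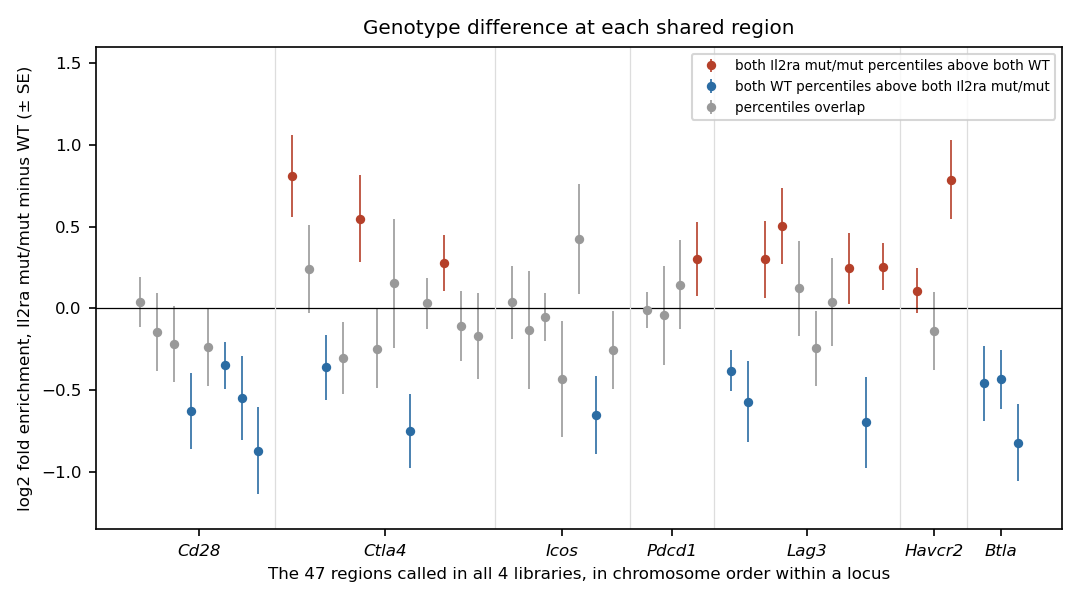
Difference in log2 fold enrichment between genotypes (y axis, Il2ra mut/mut minus WT, limma estimate ± SE, 2 libraries per genotype) for the 47 regions called in all 4 libraries, by locus and in chromosome order (x axis), coloured by whether the percentiles of the genotypes overlap. No region passes the adjusted threshold, the values run from −0.87 (Cd28-25) to 0.81 (Ctla4-1), and the points of Btla lie below 0.

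The study worked with open chromatin regions (OCRs) reproducible between replicates at an IDR of at most 0.05, and called them common or unique to a genotype. By that rule the series held 29137 OCRs, 71.8% common, 14.4% unique to WT and 13.8% unique to Il2ra mut/mut. The 7 loci held 39, with 28 common (71.8%), 7 unique to WT (17.9%) and 4 unique to Il2ra mut/mut (10.3%). The 7 were Icos-5, Icos-7, Icos-8, Pdcd1-5, Lag3-3, Lag3-7 and Lag3-13. Those unique to the mutant were Ctla4-1, Ctla4-9, Icos-6 and Havcr2-7. Thus Icos had 1 common OCR among its 5, while the 5 of Cd28 and the 3 of Btla were all common.

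Unique here did not mean absent. Among the 11 unique OCRs, 10 overlapped peaks in both libraries of the opposite genotype and Ctla4-9 overlapped a peak in 1 of them. When a unique OCR had to lack any peak in the other genotype, the count was 0 for both genotypes. The same rule left few in the series too, 294 unique to WT (1.38%) and 137 unique to Il2ra mut/mut (0.642%) of 21343 OCRs. For Lag3-3, for example, WT had an IDR of 0.00125 and the mutant 0.105. At Icos-5 it was 0.0230 and 0.517, with WT percentiles that overlapped those of the mutant. Pdcd1-5 and Lag3-7, both WT-unique, had their highest percentile in Il2ra mut/mut replicate 1.

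Regions called in both libraries of 1 genotype and in neither of the other were 9. The 4 of WT were all at Cd28. The 5 of Il2ra mut/mut (5.26% of members, against 3.56% in the series) were Ctla4-10, Pdcd1-6, Lag3-12, Havcr2-4 and Havcr2-5, and none of the 9 was reproducible by IDR.

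The promoters (500 bp either side of a start site) of genes that work with these receptors were open in most cases. Of 9 ligand and partner genes, 6 were called in all 4 libraries, with Cd274 (PD-L1) the strongest at 95.2% to 96.2%. Cd80 stood at 47.8% and 66.3% in WT against 84.8% and 88.8% in Il2ra mut/mut, and Cd86 at 86.0% and 85.1% against 87.3% and 88.8%. Both encode ligands of CD28 and CTLA-4. Icosl, the ICOS ligand, was the third with both mutant values above both WT values, at 80.6% and 83.3% against 78.2% and 79.9%. Ceacam1, Fgl1 and Pdcd1lg2 (PD-L2) were called in no library.

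Of 10 other coinhibitory and related receptors, 7 were called in all 4 libraries. Tigit, an inhibitory receptor of Treg and effector cells, stood at 94.4% and 97.7% in WT against 96.7% and 95.7% in Il2ra mut/mut, and Cd244a was called in none. Cd5, a dampener of T cell receptor signals, was the 1 of them higher in both mutant libraries, at 96.8% and 97.0% against 96.4% and 96.3%. Of 12 signalling partners all 12 were called in all 4 libraries, and 3 (25%) were higher in both mutant libraries. Lck, for the kinase that starts T cell receptor signalling, stood at 94.39% and 95.42% in WT against 95.45% and 96.47% in Il2ra mut/mut. Of PI3K subunit genes, Pik3cd stood at 91.53% and 92.82% against 93.5% and 93.65%, and Pik3r1 at 94.78% and 96.73% against 97.19% and 96.74%. That share was 50% in the ligand and partner list and 14.3% in that of other receptors. None of the genes of the 3 lists was higher in both WT libraries. Over all 21851 protein-coding genes 51.1% of promoters were called in all 4 libraries, and of those 31.4% were higher in the mutant and 10.0% in WT. These promoter orders are given only for percentiles among all peaks of a library. On that scale 67.5% of the non-overlapping regions of the series were higher in the mutant, against 51.4% with percentiles among the shared regions. The nearest values of the genotypes were 95.42% against 95.45% at Lck and 96.73% against 96.74% at Pik3r1.

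The words of the motif list were counted in the 301 bp around each strongest summit, on both strands. The RUNX word TGTGGT was in 20 of the 47 shared regions (42.6%, Wilson 95% interval 29.5 to 56.7) against 25.2% of the shared regions of the series. The ETS word AGGAAG was in 26 (55.3%, 41.2 to 68.6) against 44.9%, the NFAT word TGGAAA in 18 (38.3%, 25.8 to 52.6) against 21.6%, and the GATA word AGATAA in 12 (25.5%, 15.3 to 39.5) against 11.4%. The other ETS word, CCGGAAG, was in 1 (2.13%) against 8.61%, the forkhead word TGTTTAC in 1 (2.13%) against 4%, and the NF-kB word GGGANTTCC in none against 2.21%.

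For the STAT word TTCNNNGAA, written for the factors that IL-2 signals through, 3 of the 47 had a match (6.38%, 2.19 to 17.2) against 8.81% in the series. These were Ctla4-5, Icos-7 and Btla-4. Over all 95 regions 12 held it, Cd28-3 of the WT-only regions and Ctla4-9 and Ctla4-10 of those favouring the mutant among them. The AP-1 word TGANTCA was in 8 (17.0%) against 10.7%, the E-box CAGCTG in 8 (17.0%) against 18.4%, and the TCF/LEF words CTTTGAA and CTTTGAT in 5 (10.6%) and 6 (12.8%) against 6.37% and 4.67%. CTCF matches were in Ctla4-1, Lag3-6 and Lag3-11 (6.38% against 6.44%), a motif that was added after the data had been seen, and among the other regions in Pdcd1-3, Pdcd1-8 and Btla-6. Base composition differed as well, with a median GC content of 46.8% in the 47 regions and 51.5% in the shared regions of the series. Over all 95 regions the median was 45.5%, against 46.8% over all 271773. The part of base composition in the motif shares was not tested. Over all 95 regions the shares were 36.8% for RUNX, 46.3% for ETS AGGAAG, 33.7% for NFAT and 12.6% for STAT, against 23.4%, 38.2%, 25.6% and 9.31% of all 271773.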

How the data were processed

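ATAC-seq was run on sorted LN Treg cells of Foxp3 reporter mice, WT or Il2ra mut/mut, with 2 libraries per genotype. According to the study's methods and the submitters' processing notes, the authors trimmed reads with Trim Galore (0.3.7), mapped them to mm10 with BWA mem (0.7.13), used SAMtools (0.1.19) and Picard (1.92), removed duplicated and mitochondrial reads, kept concordant pairs, shifted the reads for the transposase and used MACS2 (2.1.0) for narrow peaks, library by library. The deposited lists give for each peak a fold enrichment (a linear ratio), a −log10 p-value, a −log10 q-value, a score that is 10 times the latter, and the summit, all made by the authors. The lists were filtered by the caller's q and give no read totals, so sequencing depth is not known and a region without a peak has no value.

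Peaks on assembled chromosomes were merged where they shared 1 bp, and the strongest peak of a region stood for it. Genes are from GENCODE vM21 on GRCm38, and sequences from the RefSeq copy of that assembly, inside whose chromosome lengths every peak ended. Genotypes were compared by whether the percentiles of the libraries overlapped, by limma (3.58.1, R 4.3.3, with a trend, quantile normalized log2 fold) over the 38281 regions called in all 4 libraries with Benjamini-Hochberg adjustment, and by IDR (at most 0.05) in Python (3.11.15) with ties in the ranks broken from a fixed seed. The fit, the merging and the IDR step were tested on simulated data. There limma recovered 0 of 200 regions changed 2-fold and 113 of 200 changed 4-fold (56.5%). The fitted member differences (−0.87 to 0.81 on the log2 scale) were all smaller than 2-fold. That no member passed therefore does not decide whether the genotypes differed. The limma p-values set the genotype difference against the spread between the 2 libraries of a genotype, borrowed in part from all fitted regions. They cover these 4 libraries only.

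Named regions are the start-site region of each gene, the next strongest region of each locus, regions with a gap of at least 10 percentile points, regions called in both libraries of 1 genotype only, and OCRs unique to a genotype; a region described beyond these, such as Btla-7 or Cd28-25, was chosen after its values were seen. The members and all lists were chosen with earlier results of these data known. Alternatives covered the peak threshold, list length, window, merging rule, percentile scale, normalization, IDR settings, motif window and leaving out each library.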

Additional observations from a re-analysis of the deposited data

How the results depend on the processing

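With 2 libraries per genotype and summits of mostly under 30 reads, small differences at single regions could not be told from replicate spread. The 95 regions and the 47 shared regions stayed within 1.5 times their number under each alternative tried (82 to 135, and 39 to 66). The counts higher in Il2ra mut/mut and in WT, 10 and 13, became 2 and 1 with a gap of at least 10 percentile points (4.03% and 2.48% in the series). When the peaks of a region were averaged in place of taking the strongest, they became 4 and 12. These were 8.51% and 25.5% of the members, against 24.2% and 13.6% in the series. Leaving out 1 library gave 13 to 23 and 14 to 26, since 3 libraries separate more easily. On quantile normalized log2 fold enrichment, an alternative chosen after seeing the data, the counts were 8 and 14 (17% and 29.8%), against 18.2% and 17.5% in the series. Limma passed 0 regions in each setting except median centring, with 311 in the series and 0 members, and the cause was not tested. The lowest adjusted p over its settings ran from 1.78e-18 with median centring to 0.659 with the replicate block. Replicate numbers are shared between genotypes, and the sources used here do not say that a number marks a common day or litter. Deviations of same-numbered libraries had a correlation of 0.012. With the replicate block limma passed 0 members and 0 regions, as without it. Of the IDR counts (28 common, 7 unique to WT, 4 unique to Il2ra mut/mut), an IDR of 0.01 left 2 unique to the mutant (6.06%, against 11.7% in the series). Requiring no peak in the other genotype left 0 and 0 unique, against 1.38% and 0.642% in the series. Dropping the IDR step gave 47 common (75.8%, against 48.0%) and 10 unique to the mutant (16.1%, against 28.7%). Ranking by fold gave the same counts because p and fold rank peaks alike. The fitted log2 differences near 0 changed sign, Pdcd1-1 (−0.01) to 0.054 and Lag3-9 (0.04) to −0.016 with median centring, and when 1 library was left out the ranges were −0.13 to 0.21 for Cd28-4, −0.12 to 0.18 for Ctla4-16, −0.16 to 0.45 for Pdcd1-9, −0.086 to 0.068 for Pdcd1-1, −0.14 to 0.21 for Lag3-9, −0.87 to 0.033 for Icos-5, −0.067 to 0.86 for Icos-6, −0.39 to 0.30 for Pdcd1-5 and −0.20 to 0.44 for Lag3-7. Over all 47 regions, 19 changed sign when 1 library or another was left out, including Ctla4-12 (−0.25 to 0.088 without Il2ra mut/mut replicate 2) and Lag3-8 (−0.24 to 0.093 without WT replicate 2), and 2 under the other settings. Regions missing from a library have no fit. Within 75 bp of the summit, the shares of all 95 regions were 28.4% for ETS AGGAAG, 21.1% for RUNX, 16.8% for NFAT and 7.37% for STAT. Over all 271773 regions of the series these shares were 22.4%, 13%, 13.3% and 4.59%.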
